A study of Mus musculus with 6 samples.

Results

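The 9 mature miRNAs described here come from introns of 3 host genes, and were taken by their exact names from a list of 1915 mature mouse miRNAs. mmu-miR-204-5p and mmu-miR-204-3p are the 2 arms of the hairpin in Trpm3, mmu-miR-211-5p is an arm of the hairpin in Trpm1, and mmu-miR-764-5p, mmu-miR-764-3p, mmu-miR-1264-5p, mmu-miR-1264-3p, mmu-miR-1298-5p and mmu-miR-448-3p come from hairpins in introns of Htr2c on the X chromosome. Small RNA-seq had been performed on whole brain of wild-type C57BL/6 mouse embryos at the E15.5 stage, with 3 libraries from females and 3 from males, to ask which miRNAs are expressed at different levels in the brains of the sexes. Each library was made from RNA pooled from several embryos of 1 sex, so the pool and not the embryo was the replicate. The prefix mmu (mouse) is left out below except beside sequences. All 6 libraries carried the same genotype and stage.

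A mature miRNA is cut from 1 arm of a hairpin, which for an intronic miRNA lies in the primary transcript of the host gene. The arm at the 5′ end of the hairpin is called 5p and the arm at the 3′ end 3p, and often 1 of them is loaded into Argonaute and kept while the other is degraded. Bases 2 to 8 of the mature sequence, the seed, pair with target transcripts. Htr2c encodes the serotonin 2C receptor, known for its abundance in the epithelium of the choroid plexus, the tissue that makes cerebrospinal fluid, and is also expressed in neurons. Trpm3 encodes a cation channel, and its miRNA miR-204 is known from choroid plexus and from retinal and pigment epithelium. Trpm1 encodes a related channel of melanocytes and retinal cells. The libraries held miRNAs of the whole brain and no mRNA, so the choroid plexus origin could not be checked against defining transcripts such as transthyretin. Fewer cells of a type and less miRNA per cell cannot be told apart in such bulk samples.

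The mature sequences are shown because the reads were assigned by them and because they show which of the 9 share a seed. They were read from RefSeq (GRCm38.p6), which held 8 of the 9, and the seed is in capitals. miR-1264-5p is named only.
mmu-miR-204-5p: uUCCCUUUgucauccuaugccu
mmu-miR-211-5p: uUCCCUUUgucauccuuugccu
mmu-miR-204-3p: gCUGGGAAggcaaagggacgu
mmu-miR-764-5p: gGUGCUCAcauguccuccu
mmu-miR-764-3p: aGGAGGCCauaguggcaacugu
mmu-miR-1264-3p: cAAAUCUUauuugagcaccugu
mmu-miR-1298-5p: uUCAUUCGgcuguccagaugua
mmu-miR-448-3p: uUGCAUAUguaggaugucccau

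miR-204-5p and miR-211-5p had the same seed and were identical at 21 of 22 positions, differing by A17U (miR-204-5p first, positions counted from 1 at the 5′ end). Reads that missed or misread that base could have been assigned to the wrong one of them, so their counts are not fully separate. The only other listed miRNA with this seed, miR-7670-3p, had 0 reads in all 6 libraries. The seeds of miR-764-5p, miR-1264-3p, miR-1298-5p and miR-448-3p were shared with no other mature miRNA of the table. The seed of miR-204-3p was shared with miR-7684-5p, which had no reads, and that of miR-764-3p with miR-7062-5p, which had reads in 1 library.

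The opposite arms of the Htr2c hairpins and of a further hairpin there, miR-1912, were read as companions of the 9, since the arms of 1 hairpin begin in equal number. RefSeq held no sequence for miR-1912-5p, so it and miR-1264-5p were not compared by seed. The companion sequences that were held, with the seed in capitals, shared no seed with the sequences printed above.
mmu-miR-448-5p: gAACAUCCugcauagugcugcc
mmu-miR-1298-3p: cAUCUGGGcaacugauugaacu
mmu-miR-1912-3p: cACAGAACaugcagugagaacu

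In the mm9 build, Mir204 lay at chr19:22825095-22825162 in intron 6 of the 24 introns of Trpm3, and Mir211 at chr7:71350692-71350797 in intron 6 of the 25 introns of Trpm1. Intron 3 of the 6 introns of Htr2c held Mir764 (chrX:143436802-143436909), Mir1912 (chrX:143443984-143444070), the miR-1264-3p arm (chrX:143445198-143445219) and Mir1298 (chrX:143499448-143499545). Mir448 lay further on, at chrX:143592753-143592864 in intron 5, and was 93207 bases from Mir1298. All were on the plus strand, as were the 3 host genes. Each sequence matched 1 place on its chromosome.

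The libraries held 14802675 to 59362011 reads assigned to miRNAs. Female library 2 stood apart, with the most reads and the fewest miRNAs detected (660, against 790 to 915 in the others), and 4.55% of its detected miRNAs had fewer than 50 reads, against 24.9 to 32.9% in the others. The values are reads and not unique molecules, so the limits given below for 0 reads (3 reads of the total) cover counting error only. Levels are given in CPM, the usual scaling of each count by the total of its library. Reads of different miRNAs are not equal in molar terms, because adapter ligation favours some sequence ends, so an order of levels is an order of reads.

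miR-204-5p had the highest level of the 9. In the females (libraries 1, 2 and 3 in this order, here and below) it was read at 1338, 1478 and 1238 CPM, and in the males at 1205, 1246 and 1225 CPM. It also varied least, with a coefficient of variation of 8.05% over the 6 libraries. Only female library 3 fell within the range of the males, so the sexes overlapped. miR-204-5p made up 55.0 to 67.0% of the reads of all 9 miRNAs.

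miR-1298-5p followed, at 529, 552 and 676 CPM in females and 504, 438 and 591 CPM in males. Its coefficient of variation was 14.7%, and the third library was the highest in each sex. miR-448-3p was next, at 189, 215 and 285 CPM in females and 112, 134 and 140 CPM in males. The lowest female library was above the highest male library. Together miR-1298-5p and miR-448-3p made up 95.8 to 98.4% of the reads of the 6 Htr2c miRNAs.

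The other 6 were far lower. miR-211-5p was read at 11.8, 17.2 and 13.8 CPM in females and at 16.4, 23.3 and 16.8 CPM in males, with female library 2 inside the range of the males. miR-1264-3p was read at 16.6, 4.67 and 15.8 CPM in females and at 9.31, 13.9 and 8.38 CPM in males. Its lowest value was in female library 2 and its highest in female library 1, so the males lay between the females. miR-1264-5p was read at 12.3, 7.66 and 13.9 CPM in females and at 5.30, 3.05 and 4.19 CPM in males, without overlap.

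The 3 lowest members were also the least even. miR-204-3p, the arm opposite miR-204-5p, was read at 1.08, 14.8 and 3.63 CPM in females and at 2.68, 1.25 and 0 CPM in males. Female library 2 held 879 of its reads, while male library 3 held none, which allows at most 0.127 CPM. miR-764-5p was read at 2.84, 0 and 3.41 CPM in females and at 2.03, 0.774 and 2.24 CPM in males. Its 0 fell in the deepest library, where the limit was 0.0505 CPM, below every other value. That library, female library 2, also had the fewest miRNAs detected, and the limit covers counting error only. miR-764-3p had 14 reads, 0.391 CPM, in female library 3 and none in the other 5 libraries.

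**Figure D1:**
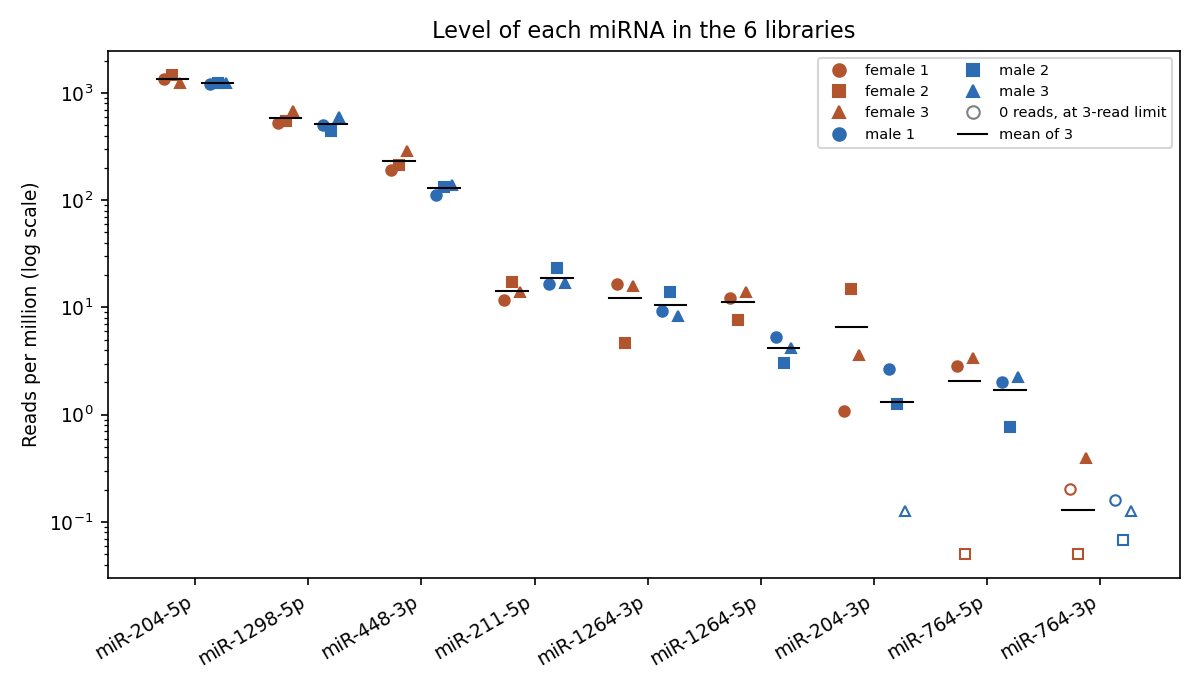
Level in CPM, on a log axis, for the 9 miRNAs in order of their mean level. Colours mark the sexes and shapes the libraries, black lines are means of 3 libraries, and open symbols mark 0 reads, drawn at the level of 3 reads. The first 3 miRNAs are set apart in all 6 libraries, the sexes do not overlap for miR-448-3p and miR-1264-5p, and open symbols appear only for the last 3.

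The order of the first 4, miR-204-5p, miR-1298-5p, miR-448-3p and miR-211-5p, was the same in 6 of 6 libraries and their ranges did not overlap. The steps between their mean levels were 2.35, 3.06 and 10.8 times. Below them the ranges of all neighbours overlapped. miR-211-5p was above miR-1264-3p in 4 of 6 libraries, miR-1264-3p above miR-1264-5p in 5 of 6, and miR-204-3p above miR-764-5p in 4 of 6.

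Over the 5 hairpins of Htr2c, the 3 nearest the start of the gene gave few reads and the 2 furthest along gave nearly all. miR-1912-3p was read at 5.34, 4.19 and 4.33 CPM in females and at 5.14, 2.23 and 4.15 CPM in males, and miR-1912-5p had 13 reads in female library 1 alone. The favoured arm changed from hairpin to hairpin. It was 5p for miR-1298, at 24.2 to 43.8 reads for each read of the 3p arm, and 3p for miR-448, at 8.08 to 43.8 reads for each read of the 5p arm. The arms of miR-1264 were close, with 0.219 to 1.64 reads of 5p for each read of 3p.

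**Figure D2:**
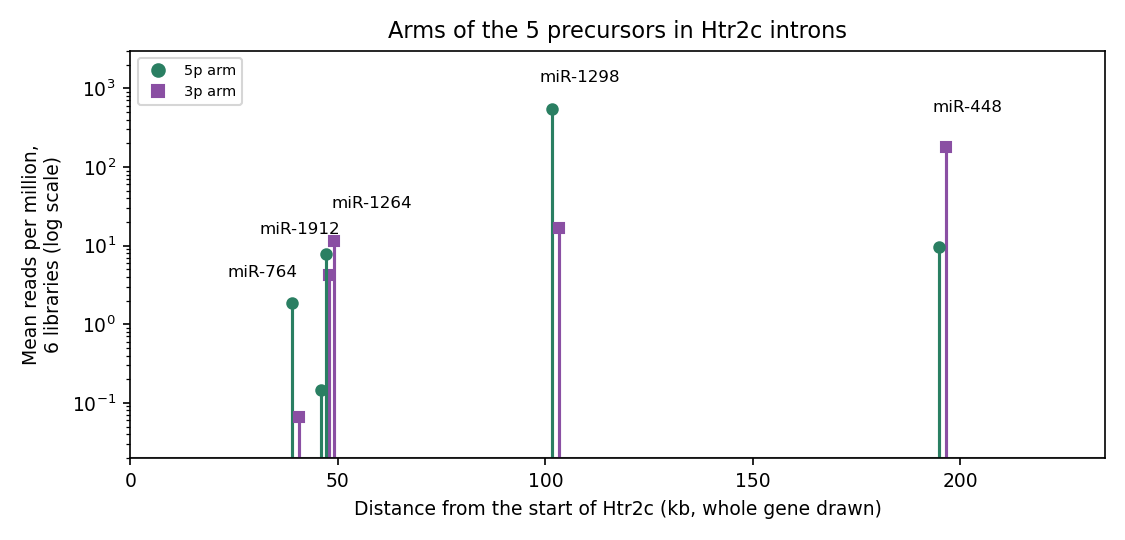
Mean level over 6 libraries (CPM, log axis) of each arm of the 5 hairpins against distance from the start of Htr2c in kilobases, with the 5p arm drawn just left and the 3p arm just right of the hairpin. The 2 hairpins furthest from the start, miR-1298 and miR-448, have the highest arms, a 5p arm for the first and a 3p arm for the second.

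For the comparison of the sexes, edgeR's quasi-likelihood test was run on all 1120 miRNAs with at least 10 reads in sum, and p-values were adjusted by the Benjamini-Hochberg method. All 9 passed this filter. This fit scaled the libraries by edgeR's TMM factors on top of their totals, so its fold changes differ from ratios of mean CPM. Log2 fold changes put the males over the females, which makes negative values female-biased, and a miRNA was called sex-biased at an adjusted p under 0.05. Of all miRNAs tested, 8.48% were called (59 female-biased and 36 male-biased, so 37.9% of the calls were male-biased). When only the library totals were used for scaling, the median over all miRNAs moved from −0.02 to 0.11 and 56.2% of the calls were male-biased. Female-biased calls were 5.27% of the miRNAs tested.

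Of the 9, 1 was sex-biased, miR-448-3p, which was female-biased. Its mean level was 230 ± 49.7 CPM in females and 129 ± 14.6 CPM in males (SD, n = 3 each). The log2 fold change was −0.96 (SE 0.23, 95% interval −1.42 to −0.49), 1.94 times higher in females, with an adjusted p of 0.00631 by edgeR's quasi-likelihood test. Scaled by library totals alone, as the means are, the log2 fold change was −0.84 (adjusted p = 0.0261 by edgeR). The call was lost without male library 1, where the log2 fold change was −0.81 and the adjusted p 0.170 by edgeR, and where 2.73% of all miRNAs tested were called. It held with any other library left out, also without female library 3, where the log2 fold change was −0.80 (adjusted p = 0.0402 by edgeR).

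miR-1264-5p showed a larger but less certain difference. Its mean was 11.3 ± 3.22 CPM in females and 4.18 ± 1.12 CPM in males (SD, n = 3 each). The log2 fold change was −1.56 (SE 0.72, 95% interval −3.05 to −0.07), and the adjusted p was 0.237 by edgeR's quasi-likelihood test. It was called by DESeq2 (adjusted p = 0.0390), which called 11.8% of the 1120 miRNAs fitted. Those for which DESeq2 gave no adjusted p are counted as not called, here and below. It was called with 1 factor of unwanted variation (RUVr) by edgeR (adjusted p = 0.0178, 20.4% of all called) and by DESeq2 (adjusted p = 0.0161, 22.9% of all called). With at least 10 reads required in every library, its adjusted p by edgeR was 0.0319 and 17.6% of the 550 miRNAs left were called. It was also called by edgeR without female library 2 (adjusted p = 0.0136), where 18.3% of the miRNAs tested were called.

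**Figure D3:**
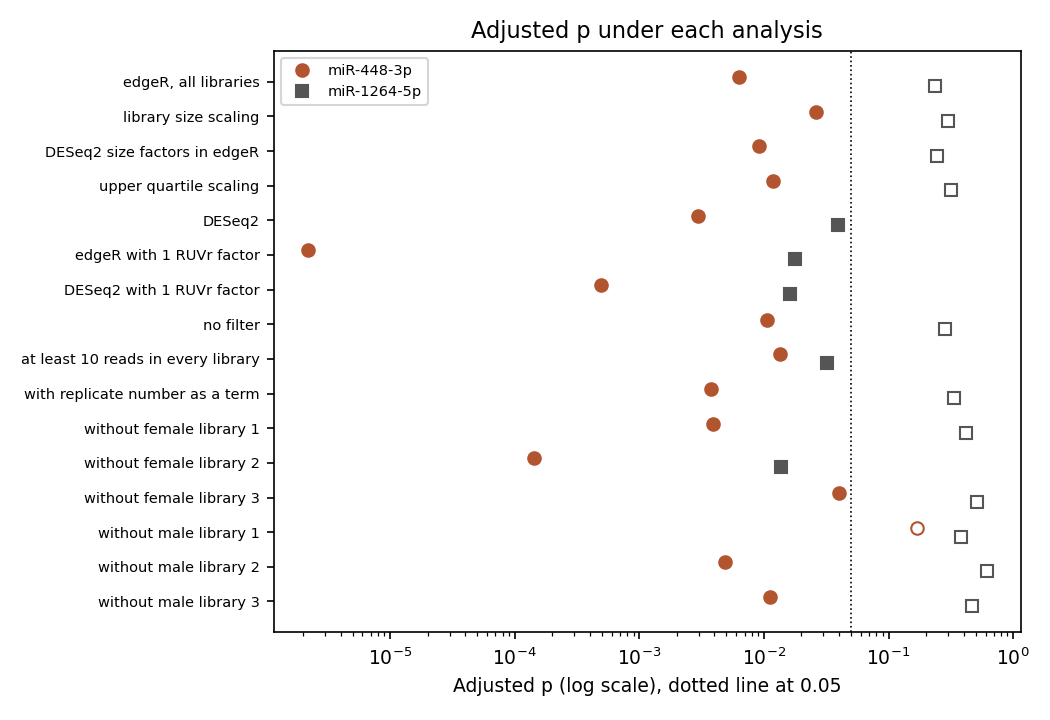
Adjusted p (log axis) of miR-448-3p (circles) and miR-1264-5p (squares) under each analysis, with the dotted line at 0.05 and filled symbols below it. The circle of miR-448-3p crosses the line only without male library 1, at 0.170, and the squares of miR-1264-5p are below it in 5 of the analyses.

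The 2 most abundant members were close in the sexes. miR-204-5p had a mean of 1351 ± 121 CPM in females and 1225 ± 20.5 CPM in males (SD, n = 3 each), and its log2 fold change was −0.27 (95% interval −0.68 to 0.13, adjusted p = 0.480 by edgeR). miR-1298-5p had a mean of 586 ± 78.8 CPM in females and 511 ± 77.0 CPM in males (SD, n = 3 each), and its log2 fold change was −0.33 (95% interval −0.74 to 0.08, adjusted p = 0.417 by edgeR). Neither passed the test, and both intervals include a difference of 0. They leave room for a modest difference in favour of the females. Scaled by library totals alone, the log2 fold change was −0.14 for miR-204-5p and −0.20 for miR-1298-5p.

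The remaining members had wide intervals. miR-211-5p was the only one of the 9 with a positive log2 fold change in this fit, 0.27 (95% interval −0.71 to 1.26, adjusted p = 0.828 by edgeR). With 1 library left out it was 0.02 (without male library 2) to 0.50 (without female library 2). The log2 fold change of miR-1264-3p was −0.30 (95% interval −1.56 to 0.96, adjusted p = 0.854 by edgeR). It was −0.05 without female library 1, −0.09 without female library 3, −0.16 without male library 1 or 3, −0.63 without male library 2 and −0.67 without female library 2. The fold change of miR-204-3p was −2.57 on the log2 scale (95% interval −5.37 to 0.24, adjusted p = 0.335 by edgeR). Without female library 2 the value for miR-204-3p was −0.98. miR-764-5p had a log2 fold change of −0.40 with an interval from −4.15 to 3.34 (adjusted p = 0.947 by edgeR), and its sign depended on the analysis. No fold is given for miR-764-3p, which had reads in a single library.

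**Figure D4:**
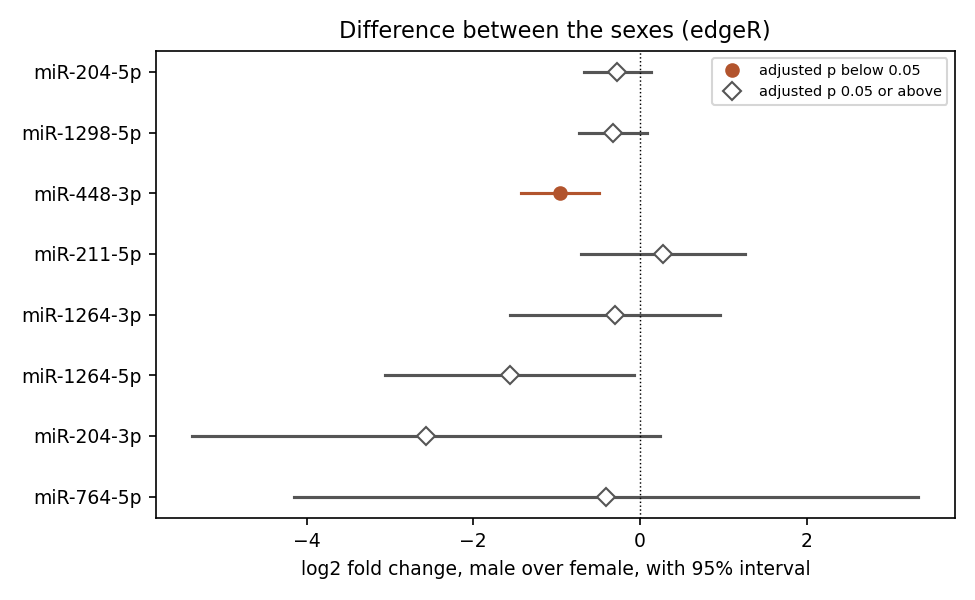
Log2 fold change, male over female, with its 95% interval from edgeR for 8 of the 9 miRNAs, in order of mean level from the top (miR-764-3p, read in 1 library, is left out). The filled circle of miR-448-3p at −0.96 is the only adjusted p below 0.05, and the intervals widen toward the less abundant miRNAs at the bottom.

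The levels of the sexes did not overlap for 2 of the 9, miR-448-3p and miR-1264-5p, both higher in females. Over all miRNAs tested, 23.9% did not overlap, and 8.57% did so with the females higher. The opposite arm miR-1298-3p also did not overlap, at 14.7, 18.9 and 27.9 CPM in females and 12.4, 14.05 and 13.5 CPM in males (log2 fold change −0.74, SE 0.47, adjusted p = 0.445 by edgeR). The opposite arm of miR-448-3p was not called. miR-448-5p was read at 4.32, 5.09 and 15.53 CPM in females and at 9.15, 5.85 and 17.3 CPM in males (log2 fold change 0.25, SE 0.68, 95% interval −1.16 to 1.66, adjusted p = 0.886 by edgeR). Of the 10 Htr2c arms tested, companions included, 1 was called, beside 8.48% of all miRNAs tested.

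Ratios within a library do not depend on the scaling between libraries, and 9 were compared with exact two-sided permutation tests of the log2 ratio with 1 read added to each count. With 3 libraries against 3 the smallest p possible is 0.1, so none could pass 0.05, and the smallest adjusted over the 9 ratios (Benjamini-Hochberg) was 0.225. miR-448-3p reads were 14.1, 14.5 and 23.0% of miR-204-5p reads in females and 9.30, 10.8 and 11.4% in males. The ratio was higher in every female library, and the log2 difference, male minus female, was −0.68 (exact permutation p = 0.1). Against its neighbour in the same gene, miR-448-3p reads were 35.7, 38.9 and 42.2% of miR-1298-5p reads in females and 22.2, 30.6 and 23.6% in males. Here too the sexes did not overlap, with a log2 difference of −0.62 (exact permutation p = 0.1). The ratio of miR-1298-5p to miR-204-5p overlapped (log2 difference −0.06, exact permutation p = 0.7).

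For the seed-sharing pair, miR-211-5p reads were 0.879, 1.17 and 1.12% of miR-204-5p reads in females and 1.36, 1.87 and 1.37% in males. Every male library was above every female library, with a log2 difference of 0.54 (exact permutation p = 0.1), and neither miRNA passed the test by itself. The reads carrying their seed, both miRNAs summed, were 1252 to 1495 CPM in females and 1221 to 1269 CPM in males.

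The arms of miR-1264 stood at 0.740, 1.64 and 0.878 reads of 5p for each read of 3p in females and at 0.569, 0.219 and 0.5 in males. All females were above all males (log2 difference −1.36, exact permutation p = 0.1). For miR-448 the 3p arm had 43.8, 42.3 and 18.4 reads for each 5p read in females and 12.2, 22.9 and 8.08 in males. These overlapped (log2 difference −1.30, exact permutation p = 0.2). The ratios of the miR-448 and miR-1298 arms, of miR-448-3p to miR-1298-5p and of miR-1298-5p to miR-204-5p were added after the data had been seen. The arm ratios of miR-204 and miR-764 rest on libraries with 0 reads and overlapped between the sexes (exact permutation p = 0.3 for each).

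**Figure D5:**
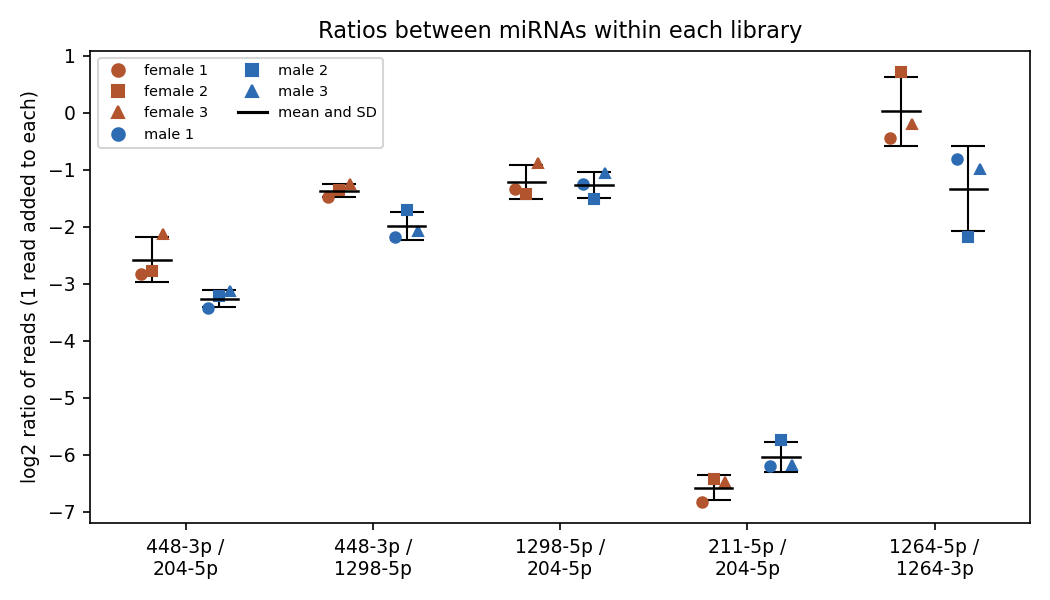
Log2 ratio of reads (1 read added to each count) between pairs of miRNAs in each of 6 libraries, with means and SD of 3 libraries per sex. The sexes do not overlap for the ratios of miR-448-3p to miR-204-5p and to miR-1298-5p, of miR-211-5p to miR-204-5p and of the miR-1264 arms, and they overlap for miR-1298-5p to miR-204-5p.

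miRNAs known from other tissues differed between the sexes in the same libraries. The muscle list was male-biased for 4 of 4 members, with a summed level of 388 to 1180 CPM in females and 5497 to 6139 CPM in males. The surface epithelium list was male-biased for 5 of 6, with 429 to 1133 CPM in females and 7990 to 8284 CPM in males. All 4 mesenchyme miRNAs were male-biased, with summed levels of 4459 to 12438 CPM in females and 19184 to 22960 CPM in males. Of the hindbrain and spinal cord list 2 of 4 were female-biased, with 8613 to 12290 CPM in females and 1659 to 2055 CPM in males. Of the neuron list 1 of 4 was female-biased (22375 to 23136 CPM against 17997 to 19045 CPM). The log2 fold changes were −0.82 for the called miR-218-5p, −0.56 for miR-124-3p, −0.09 for miR-128-3p and 0.42 for miR-129-5p. Each listed miRNA had reads, and their part in the difference of miR-448-3p was not tested. The miR-34 and miR-449 miRNAs of multiciliated epithelium, a class that includes the choroid plexus, were called for 0 of 5, with 183 to 281 CPM in females and 195 to 211.1 CPM in males. Their directions were mixed, with 2 of 5 log2 fold changes negative. They ran from −0.72 for miR-34c-5p (adjusted p = 0.0815 by edgeR) to 2.95 for miR-34b-5p, which had only 75 reads in sum. The sensory and eye list (1 of 4 female-biased) and the red blood cell list (1 of 3 male-biased) had summed levels of 2757 to 6077 and 646 to 1354 CPM in females and of 3665 to 3785 and 1595 to 1972 CPM in males. The red blood cell sum was mostly the called miR-486a-5p, with 261378 reads against 5131 for miR-451a and 776 for miR-144-3p. The log2 fold change was 0.18 for miR-451a (adjusted p = 0.869 by edgeR) and −0.97 for miR-144-3p (adjusted p = 0.703 by edgeR).

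Since Htr2c is on the X chromosome, other miRNAs that RefSeq places on the X were set beside it. Outside Htr2c, 85 of these were tested, of which 3 were female-biased (3.53%) and 2 male-biased, so 5.88% were called. Their median log2 fold change was −0.24. Over all 951 tested miRNAs with a known chromosome the median was 0.00, 8.52% were called and 5.26% were female-biased. miR-448-3p, at −0.96, was the only Htr2c miRNA called, and with it 4 of 93 X-linked miRNAs tested were female-biased (4.30%).

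The levels of the members were also compared across the 6 libraries by Pearson correlation, as a description, since the libraries share sex and depth. The log2 CPM used for this were scaled by the TMM factors as well as by library totals. Those factors ran from 0.883 (female library 2) to 1.14 (male library 1) and act on all miRNAs of a library alike, so r can depend on them. No r was computed on CPM by library totals alone. miR-448-3p went with miR-1298-5p (r = 0.88), with miR-1264-5p (r = 0.81) and with the opposite arm miR-1298-3p (r = 0.95). It hardly went with miR-448-5p from its own hairpin (r = 0.06). With the other Htr2c arms its r was 0.17 for miR-1264-3p, −0.23 for miR-764-5p and 0.32 for miR-1912-3p. For miR-764-3p and miR-1912-5p, each with reads in 1 library, r was 0.65 and 0.12. miR-204-5p had an r of 0.69 with miR-448-3p and of 0.34 with miR-211-5p. Among the 552 miRNAs averaging 100 reads or more, the 5 most like miR-448-3p were miR-99a-5p, let-7c-1-3p, miR-450a-1-3p, miR-181b-1-3p and miR-582-3p, with r from 0.98 to 0.99. The 5 most like miR-204-5p were miR-3057-5p, miR-873a-3p, miR-770-5p, miR-30a-3p and miR-344d-3p, with r from 0.93 to 0.98. No member was among the 5 most like either of them. In the order of likeness to miR-448-3p, miR-1298-5p ranked 59 and miR-1264-5p 94 of the 552.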

How the data were processed

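The authors deposited 1 table of raw read counts per mature miRNA for each library. According to the study's methods, adapters were removed with cutadapt (1.15), and reads were mapped with Bowtie (1.2.1) in the miRDeep2 workflow to miRBase sequences and mm9. Groups were taken from the labels. No library was a copy of another (at most 0.21% of counts above 100 were identical in a pair). The 9 miRNAs and the tissue lists were chosen with earlier results of these data known. Named in addition were opposite arms, miRNAs sharing a seed, and the 5 most correlated with miR-204-5p and miR-448-3p (log2 CPM with TMM scaling, prior count 2). Counts were tested with edgeR (4.0.16): TMM scaling, at least 10 reads in sum, quasi-likelihood test, Benjamini-Hochberg adjustment at 0.05. Intervals use the test's degrees of freedom. Alternatives were other scalings, other filters, DESeq2 (1.42.0), 1 RUVr factor computed from deviance residuals, the replicate number as a block, and leaving out each library. Hairpins from RefSeq (GRCm38.p6) were matched to the mm9 genome and placed in GENCODE vM1 introns. The edgeR fit alone was run on simulated counts, with larger changes than that of miR-448-3p, so this gives no check on its call.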

Additional observations from a re-analysis of the deposited data

How the results depend on the processing

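Against 1 of the 9 miRNAs called in the edgeR fit, 2 were called by DESeq2 and with 1 RUVr factor in edgeR or DESeq2. These were miR-448-3p and miR-1264-5p. All 9 were fitted in each, but DESeq2 gave no adjusted p for miR-764-3p. Without the RUVr factor it gave none for miR-764-5p either. With at least 10 reads required in every library, 6 of the 9 were tested and 2 called, with 97 of 550 miRNAs called in all. Leaving out 1 library gave 0 to 2 called members, with 0 without male library 1 and 2 without female library 2. Over all miRNAs, 95 calls became 228 in edgeR and 257 in DESeq2 with 1 RUVr factor, and 30 to 203 with 1 library left out (30 without male library 1, 60 without female library 3, 203 without female library 2). DESeq2 alone gave 132. The study's methods name DESeq2 with RUVr, and with 1 factor this combination called miR-1264-5p here. The log2 fold change of miR-448-3p stayed between −1.05 and −0.80 under every alternative run, and that of miR-1264-5p between −1.74 and −1.40. That of miR-764-5p reversed, to 1.34 and 1.43 with 1 RUVr factor in edgeR and DESeq2, to 0.83 with the replicate block, and to 0.18 without female library 3 (range −0.99 to 0.18 with 1 library left out). Summing miR-204-5p and miR-211-5p into 1 feature gave −0.26 in place of 0.27 for miR-211-5p alone, since most of the sum was miR-204-5p. The log2 difference in the ratio of miR-1298-5p to miR-204-5p reversed without female library 3 (0.11) and without male library 2 (0.06), with a range of −0.17 to 0.11 with 1 library left out. The cause of the other changes was not tested.

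The replicate numbers are shared by the sexes but did not pair the libraries: the correlations of same-numbered libraries' deviations were −0.05, −0.01 and 0.05, and not every library correlated best with its own number. With the replicate block 92 miRNAs were called, miR-448-3p among them. With 3 pools a sex, and few reads for miR-204-3p, miR-764-5p and miR-764-3p, moderate differences in these could not be detected.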

Other observations

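miR-153-3p, singled out after its values were seen, shares bases 2 to 7 with miR-448-3p but not base 8, so the pair have overlapping seeds. Its sequence, read from RefSeq, has these bases in capitals.
miR-153-3p: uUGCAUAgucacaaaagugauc
It was read at 119, 24.5 and 126 CPM in females and at 10.9, 9.72 and 11.7 CPM in males, without overlap. The log2 fold change, male over female, was −3.15 (SE 0.43), with an adjusted p of 1.15e-05 by edgeR's quasi-likelihood test. Its level was below that of miR-448-3p in every library.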
